A study of Mus musculus with 157 samples.

Results

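The 200 genes described here are those whose promoters gave a high ChIP-seq signal for phosphorylated RNA polymerase II and a low one for total polymerase in the first hours of retinoic acid treatment. They were chosen from read counts within 1 kb of each transcription start site (TSS), converted to CPM (counts scaled to the total of each library) and averaged over the libraries taken at 2, 4 and 6 h. A gene needed a mean of at least 15 CPM with the antibody to serine 5 phosphorylation (Ser5p), and 1 transcript was kept per gene, the one with the highest Ser5p. Genes of the Hox, Pax, Irx, Dlx, Nkx, Lhx, sine oculis, Tbx, Sox, Fox, Wnt, Fzd and Pcdh families and symbols ending in os or os1 were set aside. The remaining 12461 genes, of 23629 symbols measured with both antibodies, were ranked by Ser5p divided by total polymerase plus 1 CPM, and the top 200 were kept. Because these early Ser5p and total polymerase values made the choice, they are given as a description and are not tested.

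The study followed mouse E14 embryonic stem cells, an established wild-type line grown in serum and leukemia inhibitory factor, through 72 h of treatment with 1 µM retinoic acid (RA), an agent that induces their differentiation. The groups used here are untreated cells (0 h) and cells after 2, 4, 6, 24, 48 and 72 h of RA, each with 2 or 3 libraries per antibody. Crosslinked chromatin was immunoprecipitated with an antibody to the N-terminal domain of the polymerase (NTD, total polymerase, 17 libraries), to Ser5p (18 libraries) or to serine 2 phosphorylation (Ser2p, 18 libraries). All cells are one line, and nothing in the labels says that replicates were separate cultures, so p-values cover no more than the variation among the libraries at hand, part or all of which may be technical.

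RNA polymerase II carries a long repeat at its C-terminus. Kinases of the initiation machinery phosphorylate serine 5 of this repeat at the promoter, and serine 2 phosphorylation accumulates as the enzyme elongates through the gene body. In embryonic stem cells, promoters of many silent developmental regulators sit in CpG islands, are bound by Polycomb complexes, and are known to hold Ser5p polymerase without productive elongation, a state called poised. Chromatin marks of Polycomb were not analysed here.

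The sequences below are examples chosen by rank or by their changes, and do not stand for all 200 members. They are 3 of the 12 top-ranked members with a single entry in the RefSeq promoter table of GRCm38.p6 (Nr2e1, Tmem132e and Fendrr), then Fev and Barhl2, among the larger falls of Ser5p at 72 h, and Col4a1, whose total polymerase rose. Each runs 5′ to 3′ from 250 bases before to 50 after an annotated start, with CG dinucleotides in capitals. The windows are chr10:42583541-42583840 (minus strand) for Nr2e1, chr11:82388650-82388949 (plus) for Tmem132e, chr8:121083061-121083360 (minus) for Fendrr, chr1:74885359-74885658 (minus) for Fev, chr5:106458117-106458416 (minus) for Barhl2 and chr8:11312777-11313076 (minus) for Col4a1.
Nr2e1: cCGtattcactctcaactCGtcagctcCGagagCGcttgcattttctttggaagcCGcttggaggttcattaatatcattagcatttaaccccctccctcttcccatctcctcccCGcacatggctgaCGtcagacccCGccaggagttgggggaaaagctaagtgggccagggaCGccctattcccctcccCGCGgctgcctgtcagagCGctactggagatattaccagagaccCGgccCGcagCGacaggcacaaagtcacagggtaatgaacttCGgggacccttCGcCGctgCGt
Tmem132e: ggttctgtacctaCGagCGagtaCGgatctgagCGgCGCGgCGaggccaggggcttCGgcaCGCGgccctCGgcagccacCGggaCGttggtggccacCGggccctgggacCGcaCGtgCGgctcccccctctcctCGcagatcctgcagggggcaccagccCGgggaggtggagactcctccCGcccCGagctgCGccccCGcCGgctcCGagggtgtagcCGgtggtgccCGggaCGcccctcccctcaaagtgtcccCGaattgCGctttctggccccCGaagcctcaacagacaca
Fendrr: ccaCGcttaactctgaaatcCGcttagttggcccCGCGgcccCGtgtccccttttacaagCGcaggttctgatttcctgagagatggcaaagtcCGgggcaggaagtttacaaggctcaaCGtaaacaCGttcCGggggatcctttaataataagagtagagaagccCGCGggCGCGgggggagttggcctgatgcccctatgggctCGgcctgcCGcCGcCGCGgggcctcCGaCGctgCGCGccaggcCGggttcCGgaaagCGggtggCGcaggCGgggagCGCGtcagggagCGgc
Fev: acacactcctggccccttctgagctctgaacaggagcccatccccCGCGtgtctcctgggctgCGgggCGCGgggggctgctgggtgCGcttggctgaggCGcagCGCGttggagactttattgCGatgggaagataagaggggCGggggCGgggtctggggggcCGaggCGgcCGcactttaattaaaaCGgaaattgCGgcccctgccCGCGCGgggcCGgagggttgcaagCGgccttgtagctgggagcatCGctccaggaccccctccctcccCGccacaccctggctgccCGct
Barhl2: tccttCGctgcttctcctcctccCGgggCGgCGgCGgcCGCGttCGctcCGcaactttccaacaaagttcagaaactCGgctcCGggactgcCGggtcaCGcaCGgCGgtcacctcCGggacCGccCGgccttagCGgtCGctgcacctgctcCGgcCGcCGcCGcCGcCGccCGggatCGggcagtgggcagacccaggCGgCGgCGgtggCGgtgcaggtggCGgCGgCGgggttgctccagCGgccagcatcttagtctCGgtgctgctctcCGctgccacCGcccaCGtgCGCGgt
Col4a1: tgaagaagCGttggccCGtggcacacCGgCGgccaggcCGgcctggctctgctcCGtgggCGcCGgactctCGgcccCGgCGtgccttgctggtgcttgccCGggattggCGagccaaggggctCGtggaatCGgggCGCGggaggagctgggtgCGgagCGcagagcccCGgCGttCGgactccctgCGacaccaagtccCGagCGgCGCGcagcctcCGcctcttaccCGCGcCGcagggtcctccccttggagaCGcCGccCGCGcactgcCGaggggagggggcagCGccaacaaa
These windows hold 19, 31, 31, 25, 42 and 37 CG dinucleotides in that order, where the median over all 32851 promoter entries of the table is 7. Their GC content is 58.0, 72.3, 64.7, 69.0, 73.7 and 74.0%, against a median of 52.7%. A comparison of all members with other genes is void, because only 144 of the 200 members (72%) have an entry, below the 80% required.

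Of the 200 members, 199 matched the RefSeq annotation by accession, as 173 protein-coding genes, 21 long noncoding RNAs and 5 microRNA genes. Transcription factors made up 85 members, a class assigned by hand after the names were seen. A further 23 were membrane-bound ligands, receptors or coreceptors, 14 secreted ligands or antagonists and 3 ion channels. Members were 1.61% of all 12461 genes past the Ser5p minimum. Among pathway lists, homeobox factors outside the excluded families gave 36 members of 66 such genes (54.5%). Basic helix-loop-helix factors gave 12 of 43 (27.9%), growth factors with Hedgehog and Notch ligands 10 of 39 (25.6%), and zinc finger and other developmental factors 21 of 105 (20%). Receptor kinases and serpentine receptors gave 13 of 114 (11.4%), ion channels 4 of 81 (4.94%), neuropeptides and hormones 0 of 16, and reference (housekeeping) genes 0 of 19. The homeobox members include the limb and pituitary factor Pitx1, the retinal and spinal interneuron factor Barhl2 and the trunk and gut factor Cdx2. Among the helix-loop-helix members are Olig2 and Neurog2, regulators of neural progenitors, and Ptf1a, a factor of pancreas and inhibitory neurons. The secreted members include Shh, Ihh, Bmp2, Bmp6, Gdf6, Fgf5 and Fgf9, signals that pattern the embryo.

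Members lay on every autosome and on the X chromosome, but several stand beside genes of the excluded families. Mir615 (chr15:103014910-103015001) lies inside Hoxc5. Mir196b (chr6:52230081-52230165) lies 1032 bases from the near end of Hoxa10 and 2711 from that of Hoxa9, and the long noncoding RNA Fendrr starts 1276 bases from Foxf1. ChIP-seq reads carry no strand, so wherever the windows of 2 starts overlap their signal cannot be told apart. Of 144 members with a listed start, 40 (27.8%) had another gene's listed start within 2 kb, against 30.0% of 9266 other genes. Starts without an entry in the promoter table were not seen, so both shares may be too low. Fendrr, beside Foxf1, is not among the 40. The 5 microRNA members yield 9 mature arms in the RefSeq table and none shares its seed with another. A listed arm of each is shown, with the seed (bases 2 to 8) in capitals. It need not be the main product of the gene, and for Mir375 the 5p arm was the only arm listed.
miR-615-3p: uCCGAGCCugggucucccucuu
miR-196b-5p: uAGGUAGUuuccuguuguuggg
miR-9-5p: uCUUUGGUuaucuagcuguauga
miR-375-5p: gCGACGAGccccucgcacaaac
miR-1247-5p: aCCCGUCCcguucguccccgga
MiR-196b is a microRNA of the Hox clusters and miR-9 is abundant in neural progenitors. The ChIP-seq counts describe the promoter windows of these genes and not the level of the mature RNAs.

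By the values that chose them, the members had a median Ser5p of 21.5 CPM (15.1 to 49.6) and a median NTD of 6.33 CPM (3.34 to 15.5), a ratio of 2.88. The 12261 other genes past the minimum had medians of 32.5 and 34.3 CPM and a ratio of 0.941. Pitx1 led with 33.1 CPM of Ser5p, 4.80 CPM of NTD and a ratio of 5.69. It was followed by the smooth muscle repressor Prdm6 (4.83), the neural stem cell nuclear receptor Nr2e1 (4.63), Tmem132e (4.55), Fendrr (4.48) and the adrenergic receptor Adra1d (4.45). Then came the serotonergic neuron factor Fev (4.16), Barhl2 (4.15), the neural crest factor Tfap2a (4.14), Lbx1 (4.05), Mir615 (4.04) and the forebrain factor Fezf1 (3.99). Near the end of the members were Gbx1, Tbc1d30 and Prss12 (each 2.42), and the first genes outside were Isl2 and Slc9a2 (each 2.41), Stk39 (2.40) and Pxdc1 (2.39). The ranking therefore has no step at its end. Of 294 genes past the minimum that were set aside by name, 84 had a ratio at or above that of the last member.

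Libraries differed before any comparison of times. Total counts ranged from 1088159 to 3210580 per NTD library and from 1504737 to 3347830 per Ser5p library at the TSS, and the median member window held 9 to 17 NTD reads and 19 to 81 Ser5p reads. Over gene bodies the Ser2p libraries held 18045745 to 28745658 counts. At 0 h the members' median Ser5p was 22.1 CPM in replicate 1 and 47.9 CPM in replicate 4, and replicate 4 was the higher in all 200 members. The early libraries split likewise: at 2 h replicate 3 was the lowest in 200 members and at 4 h in 189, and at 6 h replicate 4 was the highest in 194. Replicate 4 exists at 0 to 6 h only and replicate 2 at 24 and 48 h only, so replicate number and time are partly confounded. The 0 and 24 h libraries share no replicate number, so between these times the 2 cannot be told apart directly. The counts of Ser5p calls and medians of member groups below are also given without 0 h replicate 4. The NTD libraries of 0 h replicate 4 and 72 h replicate 3 stood apart at 2 members. Zfp503 read 4.90 and 68.9 CPM at 0 h and 18.9 and 57.0 CPM at 72 h, and Sorcs3 read 5.99 and 37.4, then 5.08 and 29.3 CPM. Embryonic stem cell markers had Ser2p over their bodies at 0 h, 7 of 8 above 2 times the median of olfactory and vomeronasal receptor genes, which are silent in these cells. Their summed level was 15.6 to 21.8 FPKM (the authors' library-scaled signal per length) at 0 h and 10.8 to 20.2 FPKM at 72 h, when 5 of 8 were above that level (8 of 8 at 24 h and 4 of 8 at 48 h). Of 6 neural progenitor markers, 1 was above it at 0 h, 4 at 24 h and 1 at 48 and at 72 h (summed 6.58 to 6.75 FPKM at 0 h and 6.12 to 7.59 FPKM at 24 h). The receptor median behind this level was taken at each time, as 0.685, 0.556, 0.644 and 0.648 FPKM at 0, 24, 48 and 72 h. The level was thus lowest at 24 h, and counts of different times were not set against the same level. None of 8 fibroblast markers passed that level at any time, and 2 of 6 primitive endoderm markers did at 72 h (summed 7.19 to 9.07 FPKM, against 4.84 to 5.55 FPKM at 0 h). The part of other cell types in the results was not tested, and in these bulk samples fewer cells with a signal and less signal per cell cannot be told apart.

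In untreated cells, which the rule did not use, the members already had a high Ser5p signal relative to total polymerase. The values of each antibody are scaled to its own libraries, so a log2 difference of 0 between them marks the ratio of the bulk of transcripts, and no difference compares amounts of polymerase. Pitx1 (chr13:55825044-55836190) had 32.9 and 66.5 CPM of Ser5p at 0 h and 5.44 and 5.39 CPM of NTD. Barhl2 (chr5:106452523-106458166) had 26.5 and 62.6 CPM of Ser5p and 4.35 and 3.08 CPM of NTD. In CPM, both Ser5p libraries stood well above both NTD libraries at each gene. In a joint edgeR fit of both antibodies, Ser5p exceeded NTD by 2.93 ± 0.42 (log2, SE; 7.64-fold, adjusted p = 7.38e-06) at Pitx1 and by 3.34 ± 0.47 (adjusted p = 6.18e-06) at Barhl2. Such differences passed an adjusted p of 0.05 in 197 of 200 members and none went the other way, where 6.08% of all transcripts tested were higher and 5.89% lower. The members' median difference was 2.18 on the log2 scale (4.54-fold), against -0.30 for the other genes past the minimum and 0.64 for 1168 olfactory and vomeronasal receptors tested. The 3 members not called were Zfp503, Sorcs3 and Sh3rf3. Without Ser5p 0 h replicate 4 the count fell to 83 with a median of 1.55, and without NTD 0 h replicate 4 to 148 with a median of 2.02.

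**Figure D1:**
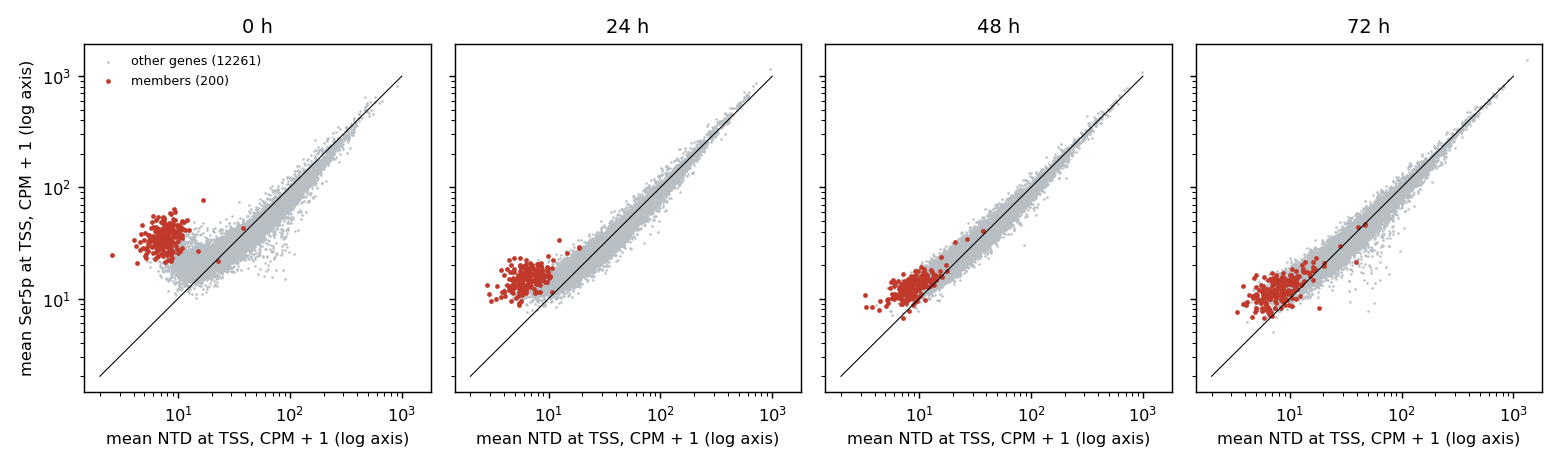
Mean Ser5p (y axis) against mean NTD (x axis) at the TSS, both as CPM plus 1 on log axes, at 0, 24, 48 and 72 h; red points are the 200 members, grey points the other 12261 genes past the Ser5p minimum, and the line marks equal values. The members lie above the line at 0 h, where their median log2 difference was 2.18, and close to it at 48 h, where it was 0.46. Isolated red points to the right at 0 h include Zfp503 and Sorcs3.

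The excess was smaller at 24, 48 and 72 h of RA than at 0 h. The ratio of Ser5p to NTD plus 1 CPM, taken within libraries of the same number, had a median over members of 2.77 and 7.00 at 0 h and of 2.12 and 2.15 at 24 h. It was 1.47, 1.33 and 1.23 at 48 h and 1.33 and 1.27 at 72 h. A ratio above 1 was found in 200 and 198 members in the 0 h libraries but in 138 to 168 of 200 at 48 h. Over the receptor genes the same ratio was 1.31 and 1.57 at 0 h and 0.984 to 1.26 at 48 h, so that at 48 h the members' ratio lay close to that of silent genes. In the joint edgeR fit, Ser5p exceeded NTD in 18 members and fell below it in 0 at 24 h (0.143% of all transcripts tested were higher and 0.064% lower; members' median 1.26). That count was 0 without NTD replicate 2, NTD replicate 3 or Ser5p replicate 3 and 9 without Ser5p replicate 2. At 48 h it did so in 0 members (0% of all transcripts were higher and 0.116% lower; members' median 0.46; 34 with an unadjusted p under 0.05), and DESeq2 also gave 0. Same-numbered NTD and Ser5p libraries of one time deviated together to varying degrees. With each such pair of libraries as a block, 144 members were called at 24 h and 12 at 48 h. The share of all transcripts called under this block was not counted. At 72 h 1 member, the retinal ganglion cell factor Pou4f2, was called (0.0183% of all transcripts higher and 0.262% lower; members' median 0.51), and 0 were without NTD replicate 3 or without either Ser5p library. The drop of the excess between 0 and 48 h, tested as an interaction, passed in 27 members, all downward (0.384% of all transcripts downward and 0.0152% upward; members' median -1.74). Without Ser5p 0 h replicate 1 the members' median was -2.07. The drop passed in 129 members with each pair of same-numbered libraries of one time as a block (median -1.78), where the share of all transcripts was not counted. It passed in 0 without 0 h replicate 4 of Ser5p (median -1.04) or of NTD (median -1.57). Leaving out a 48 h library gave 2 to 17 members.

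The set found by the rule changed with time. Applied to the 0 h libraries, the rule returned 144 of the 200 members (130 without NTD replicate 4, 112 without Ser5p replicate 4). Applied to the 24 h libraries it returned 81, to those of 48 h 9 and to those of 72 h 6. Of the members, 86 at 24 h, 32 at 48 h and 33 at 72 h still had the required 15 CPM of Ser5p, so at 24 h all but 5 of those that could qualify were returned.

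Ser5p itself fell at most members. Fev (chr1:74881501-74885473) had 32.4 and 71.8 CPM of Ser5p at 0 h, 18.7 and 15.8 CPM at 24 h, 12.6, 7.58 and 6.98 CPM at 48 h and 9.42 and 4.20 CPM at 72 h. Every later library was below both untreated ones. The edgeR change at 48 h was -2.44 ± 0.35 (log2, SE; 5.41-fold lower, adjusted p = 1.10e-05). Fendrr, a noncoding RNA needed for heart and body wall development, went from 39.8 and 85.5 CPM at 0 h to 7.66 and 7.47 CPM at 72 h, a log2 change of -2.88 ± 0.44 (7.35-fold lower, edgeR adjusted p = 2.52e-05). Pitx1 went from 32.9 and 66.5 CPM to 10.6, 10.9 and 11.6 CPM at 48 h (-2.02 ± 0.34, edgeR adjusted p = 8.58e-05). At each of these 3 genes the higher untreated library had over 2 times the level of the lower one, but the groups did not overlap. Without 0 h replicate 4, all 3 were still among the members called lower at 48 h.

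Over all members, edgeR called Ser5p lower in 99 of 200 at 24 h (3.14% of all transcripts tested), 181 at 48 h (5.37%) and 159 at 72 h (3.87%), and higher in 0 at each time (3.59, 6.84 and 5.09% of all transcripts). Median log2 changes of the members were -1.04, -1.43 and -1.52, against -0.07, -0.07 and -0.04 over all transcripts tested. All 200 members had a negative sign at 24 and 48 h and 197 at 72 h. Without 0 h replicate 4 the calls dropped to 0, 21 and 18 and the medians to -0.43, -0.82 and -0.89. At 48 h 1.02% of all transcripts were then called lower. Without 0 h replicate 1 the calls were 167, 189 and 186. At 24 h the count was 9 without replicate 2 and 0 without replicate 3 of that time, and at 72 h it was 42 without replicate 3. DESeq2 called 1 member lower at 24 h, and edgeR with the authors' scale factors 27. With the replicate number as a block, edgeR called 0 lower at 24 h, 91 at 48 h and 122 at 72 h. The members' medians were then -0.35, -0.92 and -1.10. Within replicate 1, the only number present at 0, 48 and 72 h, the members' median Ser5p was 22.1, 13.96 and 13.5 CPM. Leaving out either untreated library changed the size of the medians and the number of calls, but not the sign of the medians. These comparisons share the 0 h libraries, so they are not independent of each other.

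**Figure D2:**
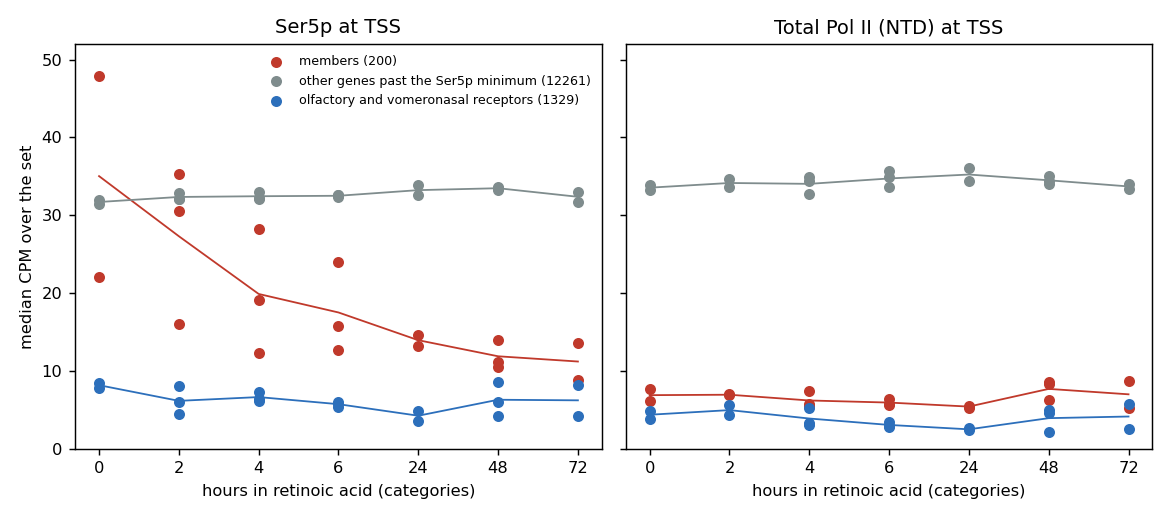
Median CPM at the TSS in each library (points) and its mean over libraries (lines) against hours in retinoic acid (categories, not to scale), for Ser5p (left) and NTD (right). The members' Ser5p falls from 22.1 and 47.9 CPM at 0 h to 8.87 and 13.5 CPM at 72 h, while their NTD stays between 5.29 and 8.70 CPM and the other genes (grey) lie between 31.4 and 36.1 CPM.

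The fall at 48 h was called in 181 of all 200 members, against 5.37% of all transcripts tested. By role, it was called in 81 of 85 transcription factors, 21 of 23 membrane-bound ligands and receptors, 12 of 14 secreted factors, 2 of 3 ion channels, 5 of 5 microRNA genes and 60 of 70 others. Without 0 h replicate 4 these counts were 14, 1, 1, 0, 0 and 5. Among the lists, all 36 homeobox members were called lower at 48 h (median -1.56), with 11 of 12 helix-loop-helix members (median -1.37) and 20 of 21 zinc finger and other factors (median -1.77). Without 0 h replicate 4 these counts were 8, 2 and 3 and the medians -0.95, -0.76 and -0.96. Genes of these lists that passed the minimum but were not members fell less often when all libraries were used. They were not looked at without 0 h replicate 4. Over all other genes past the minimum, the median without that library was 0.13, against -0.82 in the members. With all libraries, 8 of 30 homeobox factors were called lower and 0 higher (median -0.65). For helix-loop-helix factors it was 8 lower and 4 higher of 31 (-0.39), and for zinc finger and other factors 26 lower and 10 higher of 84 (-0.38). The homeobox member Barx1, a factor of stomach and tooth development, fell from 25.1 and 52.2 CPM to 8.64, 7.58 and 6.52 CPM (-2.22 ± 0.34, edgeR adjusted p = 3.04e-05). The helix-loop-helix repressor Helt fell from 20.6 and 35.2 CPM to 11.3, 5.05 and 5.58 CPM. Regulators of different germ layers were among those called. Gata4, a factor of endoderm and heart, went from 34.9 and 52.2 CPM to 20.6, 12.6 and 14.4 CPM (-1.37), the organizer gene Gsc from 28.5 and 56.1 CPM to 13.3, 8.00 and 13.0 CPM (-1.78), and Olig2 from 21.6 and 47.0 CPM to 15.3, 9.68 and 12.1 CPM (-1.36). None of these last 3 was called without 0 h replicate 4.

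Ser5p also fell at the receptors and signals among the members. Receptor kinases and serpentine receptors were called lower at 48 h in 12 of 13 members (median -1.55), growth factors with Hedgehog and Notch ligands in 10 of 10 (median -1.46), and axon guidance ligands in 3 of 3 (median -1.37). TGF-β and BMP ligands and antagonists were called in 3 of 5 (median -1.04), ion channels in 3 of 4 and matrix and adhesion genes in 3 of 5. Without 0 h replicate 4, 2 of the growth factors were still called and 0 members of the other 5 lists. The medians were then -0.85 for receptors, -0.83 for growth factors, -0.71 for axon guidance ligands and -0.62 for TGF-β and BMP genes. Genes of these lists that were not members did not share the fall to this extent when all libraries were used. They, too, were not looked at without 0 h replicate 4. With all libraries, 11 of 101 receptors were called lower and 11 higher (median -0.05). Growth factors gave 3 lower and 0 higher of 29 (-0.24), axon guidance ligands 2 and 3 of 21 (-0.19), and TGF-β and BMP genes 10 and 1 of 23 (-0.38). Ion channels gave 9 and 3 of 77, and matrix and adhesion genes 7 and 10 of 78. The neurotrophin receptor Ntrk3, a member, had 17.2 and 44.4 CPM at 0 h and 5.98, 3.79 and 7.45 CPM at 48 h. The Notch ligand Dll4 had 25.1 and 48.3 CPM and then 8.64, 8.00 and 9.77 CPM, and the morphogen Shh 15.2 and 31.3 CPM and then 8.64, 8.42 and 8.84 CPM. At Ntrk3, Dll4 and Shh the 48 h libraries all lay below both untreated ones. Bmp2, a bone morphogenetic protein, read 22.6 and 37.2 CPM at 0 h and 15.3, 18.5 and 18.1 CPM at 48 h, a log2 change of -0.64 with an edgeR adjusted p of 0.149. The 19 members not called lower at 48 h included Col4a1 and Col4a2 (each -0.20).

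The later Ser5p libraries were below both 0 h libraries in 190 members at 24 h, 185 at 48 h and 188 at 72 h, where 44.5, 24.6 and 30.8% of all transcripts did the same. Similar values came from the genes set aside by name: of the 84 with a ratio as high as the members', 80 were called lower in Ser5p at 48 h with a median of -1.50, and 9 without 0 h replicate 4, with a median of -0.85. The olfactory and vomeronasal receptor genes had a median of -0.32, and 13 of 1160 tested were called lower. Without that library it was -0.27, with 3 of 1191. With the authors' own scale factors, which move the median Ser5p change of all transcripts to 0.40, 0.23 and 0.17 at 24, 48 and 72 h, the members' medians were -0.58, -1.13 and -1.32.

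Changes of total polymerase at 48 and 72 h against 0 h were called no more often among the members than among all transcripts. At 24 h, and between 24 and 48 h, too few members were called to compare. Fev read 6.53 and 6.55 CPM of NTD at 0 h and 9.32, 5.11 and 7.35 CPM at 48 h, and Pitx1 5.44 and 5.39 and then 10.0, 3.29 and 6.43 CPM. The groups overlapped at both genes. Of 199 members tested with edgeR, NTD was called higher in 0 and lower in 2 at 24 h (0.938 and 0.581% of all transcripts tested), higher in 7 and lower in 2 at 48 h (4.66 and 4.92%) and higher in 11 and lower in 1 at 72 h (5.66 and 3.47%). Members' median log2 changes were -0.23, 0.20 and 0.05. The sign at 24 h turned with the authors' scale factors (0.17), but these move the median of all transcripts from -0.03 to 0.38. The members' median was thus below that of all transcripts either way. The sign at 72 h turned without NTD 72 h replicate 1 (-0.04). All 48 h libraries were above both 0 h libraries in 48 of 200 members (18.2% of all transcripts) and below both in 7 (15.6%). The members called lower at 24 and 48 h were Zfp503 and Sorcs3, whose 0 h replicate 4 stood apart, and 0 were without that library. At 48 h the count of rises was 3 without NTD 0 h replicate 4 and 4 without NTD 48 h replicate 3, 3 with DESeq2 and 16 with the authors' factors, which move the median of all transcripts to 0.20. At 72 h it was 6 without NTD 72 h replicate 3 and 4 with DESeq2. Between 24 and 48 h, 1 member, Ankrd63, was called higher (1.63) and 0 lower, against 0.217 and 0.935% of all transcripts, and 0 were without NTD 24 h replicate 2 or without 48 h replicate 1 or 3. Self-tests on simulated counts recovered 38% of 2-fold and 78% of 3-fold NTD changes between 0 and 48 h. The changed transcripts were drawn from the whole table above a low CPM minimum, so most 2-fold changes of such transcripts would be missed. Recovery at the members' own windows was not measured.

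**Figure D3:**
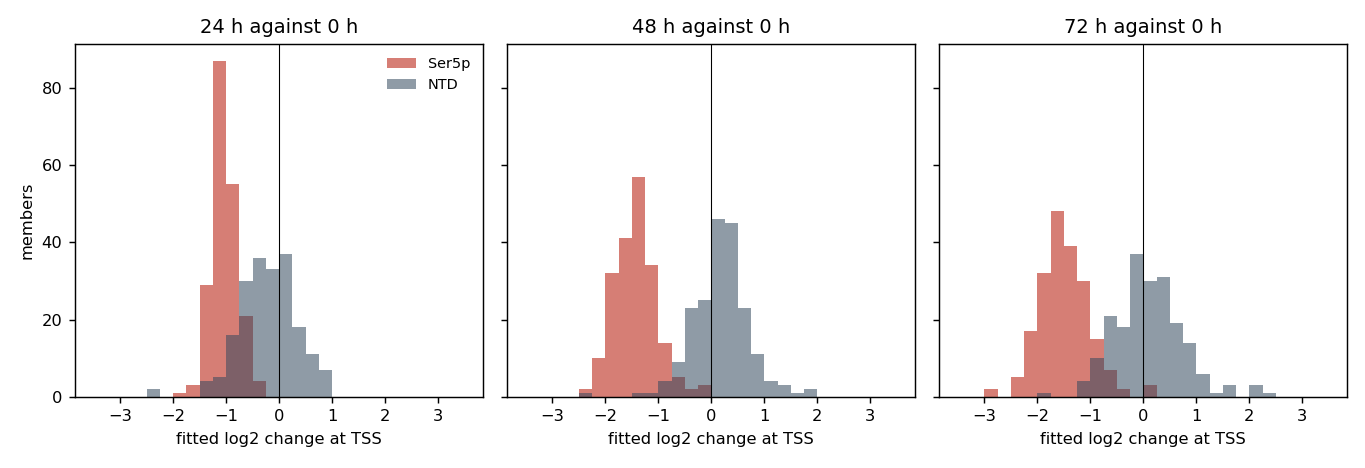
Number of members (y axis) by fitted log2 change at the TSS against 0 h (x axis), for Ser5p (red) and NTD (grey-blue), at 24, 48 and 72 h; the vertical line marks no change. Ser5p changes centre on -1.04, -1.43 and -1.52 and NTD changes on -0.23, 0.20 and 0.05, with a few NTD rises of 1 or more at 48 and 72 h.

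A few members gained total polymerase. Their share, 3.52% at 48 h and 5.53% at 72 h, was no higher than the 4.66 and 5.66% of all transcripts tested. Col4a1 (chr8:11198423-11312889) and Col4a2 encode the chains of the main basement membrane collagen and start 21 bases apart on opposite strands, so their windows share reads. Col4a1 had 8.71 and 11.2 CPM of NTD at 0 h, 15.9 and 19.5 CPM at 24 h, 43.0, 35.05 and 30.3 CPM at 48 h and 68.2 and 24.3 CPM at 72 h. The 48 and 72 h libraries were all above both untreated ones (48 h log2 change 1.80 ± 0.30, edgeR adjusted p = 2.28e-05; 72 h 2.07, 4.21-fold, adjusted p = 4.41e-06). Its Ser5p read 29.5 and 65.9 CPM at 0 h and 58.5, 21.5 and 38.2 CPM at 48 h, ranges that overlap.

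Egr3 (chr14:70077317-70082613), an immediate early zinc finger factor, had 6.53 and 4.24 CPM of NTD at 0 h and 29.7 and 24.9 CPM at 72 h (log2 change 2.38 ± 0.35, 5.22-fold, edgeR adjusted p = 2.87e-06). Both 72 h libraries lay far above the untreated ones. Ser5p at 72 h did not pass the test at Egr3 or Col4a1, with log2 changes of -0.37 (edgeR adjusted p = 0.547) and 0.03 (0.981). At Egr3, NTD at 72 h had reached about the CPM of Ser5p, which was 24.7 and 32.7 CPM.

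The orphan nuclear receptor Nr2f2 (chr7:70351946-70366746), a regulator of vein, atrium and interneuron identity, had 4.90 and 5.01 CPM of NTD at 0 h and 16.0 and 14.3 CPM at 72 h (1.62 ± 0.39, 3.07-fold, edgeR adjusted p = 0.00357). Its paralog Nr2f1 was called at 48 h (1.53) and 72 h (1.66), from 3.26 and 3.08 CPM at 0 h to 10.2 and 9.66 CPM at 72 h, a call that most alternative settings lost. The fetal growth factor gene Igf2 (chr7:142650768-142666816) had 5.99 and 7.32 CPM at 0 h and 20.3 and 18.1 CPM at 72 h (1.52 ± 0.34, 2.86-fold, edgeR adjusted p = 0.00167). In all 3 genes both 72 h libraries were above both untreated ones. Cachd1, Maml3, Mir615 and Vax2 were also called higher at 72 h, with log2 changes of 1.14 to 1.49. Pou4f2 was the member called lower, from 8.16 and 10.4 CPM to 4.35 and 1.25 CPM (-1.99). Without NTD 0 h replicate 4, 0 members were called lower at 72 h, and without NTD 72 h replicate 1, 3 were.

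**Figure D4:**
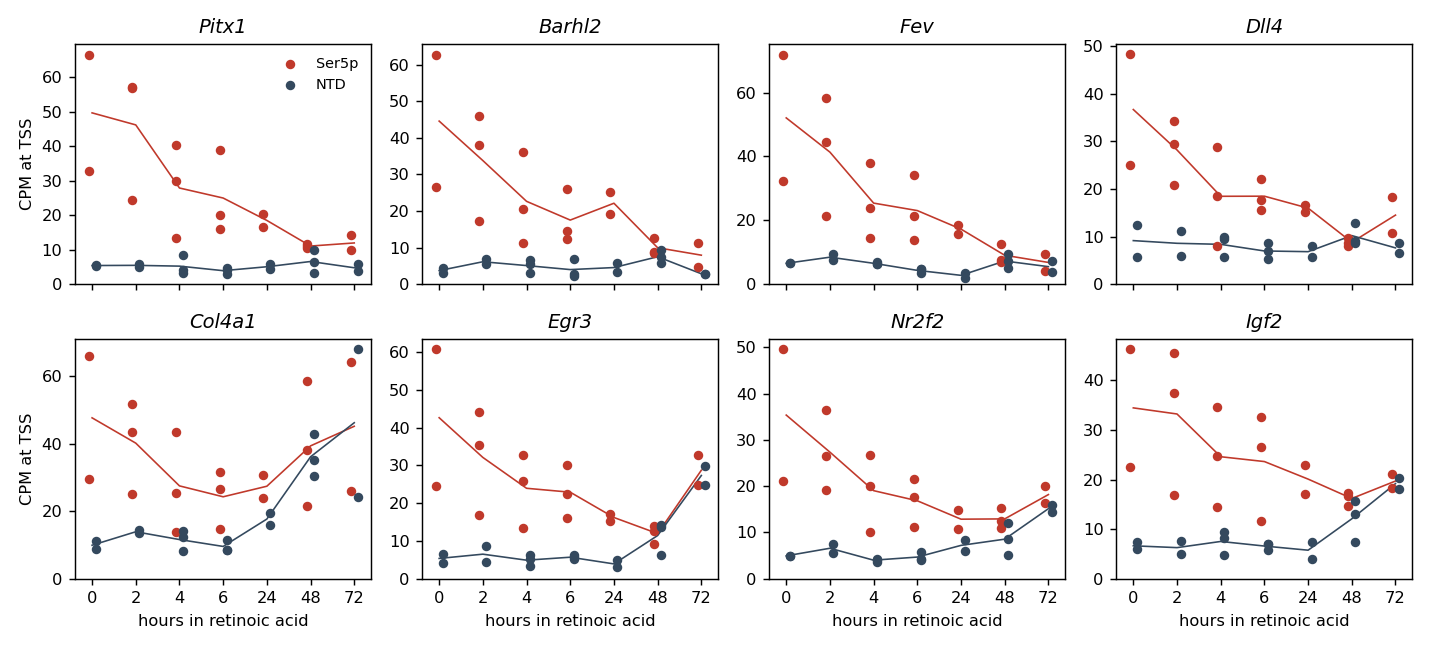
CPM at the TSS in each library (points) and its mean (lines) against hours in retinoic acid (categories, not to scale), for Ser5p (red) and NTD (dark blue) at 8 members. Pitx1, Barhl2, Fev and Dll4 lose Ser5p while NTD stays low, whereas NTD comes near the Ser5p level at Col4a1, Egr3, Nr2f2 and Igf2 by 72 h.

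Polymerase signal over the gene bodies of members stayed low. The members' median Ser2p was 0.716 to 0.871 FPKM across the 18 libraries, against 0.547 to 0.717 FPKM for the receptor genes and 1.07 to 1.28 FPKM for the other genes past the minimum. Their median NTD over gene bodies was 0.609 to 0.701 FPKM, against 0.392 to 0.569 FPKM for receptor genes. Of 195 members tested with edgeR, Ser2p was called higher in 1 and lower in 22 at 24 h (9.01 and 3.99% of all transcripts tested), higher in 1 and lower in 0 at 48 h (1.41 and 0.346%), and higher in 3 and lower in 1 at 72 h (1.28 and 0.342%). The falls at 24 h were small, from -0.28 to -0.74, and their count was 5 without Ser2p 0 h replicate 1 and 0 without Ser2p 0 h replicate 4 or either 24 h library. At 72 h the rises were Igf2 (1.43), Col4a1 (1.06) and the chromatin protein gene Hmga2 (0.62), and the fall was Pou4f2 (-0.79). Igf2 had 0.641 and 0.761 FPKM of Ser2p at 0 h and 1.01 and 2.88 FPKM at 72 h. With either Ser2p 0 h library left out, 0 members were called higher or lower at 72 h.

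Some members have more than 1 start in the annotation, which was looked at after the values above were seen. Other starts of Egr3 (mean NTD 8.43 CPM at 0 h and 50.04 CPM at 72 h) and Igf2 (6.74 and 35.1 CPM) rose together with the member windows. At Nr2f2 the other start did not, with a mean of 7.90 CPM at 0 h and 8.76 CPM at 72 h.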

How the data were processed

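ChIP-seq of 53 samples (35 TSS libraries of NTD and Ser5p and 18 Ser2p libraries), of 157 in the labels, was used in 4 deposited tables. The authors deposited raw read counts per RefSeq transcript, and beside them a normalized signal, the count times a factor fixed per library. The submitters' processing notes name Bowtie2, SAMtools, MACS2 and DESeq2 and the builds mm10 and dm6, but the sources used here do not give their roles, their versions or the counting tool. The labels call these libraries xChIP, while the extraction text covers native ChIP. For gene bodies the authors' deposited FPKM described levels. It is their normalized signal per length, and that length was within 10% of proportional to the RefSeq gene extent, introns included, for 80.3% of 33556 Ser2p transcripts matched. Of the per-sample or per-group columns, 14 were not used. Transcripts without a symbol (80 for NTD and 90 for Ser5p at the TSS, 0.065 and 0.0761% of counts) stayed in library sizes and were no members.

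Groups and replicate numbers came from the labels. Each table was fitted whole in edgeR 4.0.16 (quasi-likelihood, TMM, filterByExpr; R 4.3.3, limma 3.58.1), with all times as one factor and Benjamini-Hochberg adjustment at 0.05 over 31868 (NTD), 32774 (Ser5p), 32123 (Ser2p) and 32820 (joint) transcripts. NTD and Ser5p counts were also fitted jointly for Ser5p against NTD. Normalized by TMM, a log2 value is relative to the bulk of transcripts. Python 3.11.15, pandas 2.3.3 and matplotlib 3.10.9 made summaries and figures. Alternatives were DESeq2 1.42.0, no filter, the authors' factors, column sums, a replicate block and leaving out each library. The block was the replicate number in the fits of a single antibody, and time and replicate number together in the joint fit.

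Same-numbered NTD and Ser5p libraries were checked for pairing by correlating deviations from group means: r was 0.0608 to 0.463 over 17 pairs, and 0.0916 at 0 h, 0.463 at 24 h and 0.185 to 0.327 at 48 h. Across times, same-numbered libraries had a median r of 0.04 (NTD), 0.04 (Ser5p) and -0.22 (Ser2p). On simulated data, the fits recovered 39% of 2-fold and 82% of 3-fold Ser5p changes and all Ser2p changes of these sizes between 0 and 48 h, with 2.52 to 4.72% of calls false. The simulated counts had the same spread for every transcript of a fit and no shift shared by many transcripts of a library. These rates therefore do not cover differences such as that of Ser5p 0 h replicate 4. Genes named were the 12 highest by ratio, those at the end of the ranking, the largest called changes with libraries that did not overlap, a list of known regulators and 2 members per list; others named were chosen after their values were seen. Results on some genes are not reported here. The members and lists were chosen with earlier results of these data known. RefSeq annotation of GRCm38.p6, the assembly of mm10, gave positions.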

Additional observations from a re-analysis of the deposited data

How the results depend on the processing

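Of 44 named gene changes, 17 passed the threshold under every setting tried, 27 lost it under 1 or more and 0 reversed. The rises of NTD at Col4a1 and Col4a2 at 48 and 72 h and at Egr3 at 72 h were among the 17. The members' median NTD change turned sign from -0.23 to 0.17 at 24 h with the authors' factors and from 0.05 to -0.04 at 72 h without NTD 72 h replicate 1. At 24 h those factors also moved the median of all transcripts, from -0.03 to 0.38, so the members stayed below it. The cause of the shifts below was not tested.

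Counts of members called, with leaving out each library in turn given as lowest to highest, were as follows. For Ser5p lower, 99 at 24 h became 0 to 167, 181 at 48 h became 21 to 189, and 159 at 72 h became 18 to 186. For NTD at 24 h, 2 lower became 0 to 3. At 48 h, 7 higher became 3 to 6 and 2 lower 0 to 2. At 72 h, 11 higher became 6 to 10 and 1 lower 0 to 3, and for 48 against 24 h 1 higher became 0 to 1. For Ser2p at 24 h, 1 higher became 0 to 1 and 22 lower 0 to 5, and at 72 h 3 higher became 0 to 4 and 1 lower 0 to 4. For Ser5p above NTD, 197 at 0 h became 83 to 197, 18 at 24 h became 0 to 9 and 1 at 72 h became 0 to 2, with 0 to 2 lower. The 27 that lost excess by 48 h became 0 to 112. Where a group kept 1 library, it was assumed to vary like the others.

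With DESeq2, 1 member was lower in Ser5p at 24 h. NTD gave 3 members higher at 48 h, 4 at 72 h and 0 for 48 against 24 h, and 0 lower at 24, 48 or 72 h. Ser2p gave 36 lower at 24 h and 0 at 72 h, and 5 higher at 72 h. Ser5p above NTD gave 9 at 24 h and 0 at 72 h, and 6 lost excess. With the authors' factors, Ser5p at 24 h gave 27 lower, NTD 16 higher at 48 h and 0 for 48 against 24 h, and Ser2p 12 lower at 24 h and 2 higher at 48 h. With column sums, 0 members had Ser5p above NTD at 72 h and 13 lost excess. Without both NTD libraries that stood apart, NTD gave 5 higher at 72 h and 0 lower at 48 or 72 h, Ser5p above NTD gave 0 at 72 h, and 0 lost excess.

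With the replicate number as a block, Ser5p lower gave 0 at 24 h and 91 at 48 h. NTD gave 2 higher and 1 lower at 24 h, 1 lower at 48 h and 3 higher for 48 against 24 h. Ser2p gave 0 lower at 24 h, 2 higher at 48 h and 0 lower at 72 h. In the joint fit the block was each pair of NTD and Ser5p libraries of the same time and number. There Ser5p above NTD gave 144 at 24 h, 12 at 48 h and 9 at 72 h with 2 lower, and 129 lost excess. By correlation, replicate numbers were not shown to pair libraries across times, as the block in the fits of a single antibody assumes. No number is shared by 0 and 24 h. The members' median Ser5p, however, was higher in replicate 1 than in replicate 3 whenever a time had both. At 0 h, which has no replicate 3, replicate 1 read 22.1 CPM. At 2, 4, 6, 48 and 72 h in turn, replicate 1 read 35.3, 28.3, 15.8, 13.96 and 13.5 CPM. Replicate 3 read 16.0, 12.3, 12.7, 11.2 and 8.87 CPM. Replicates 1 and 4 kept no such order. Apart from the block on replicate number, the share of replicate number in the members' Ser5p fall was not tested.

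The rule returned 81 members from the 24 h libraries, 9 from 48 h and 6 from 72 h. It returned 59 with a Ser5p minimum of 25 CPM, which is every member past that minimum. In settings chosen after seeing the data, it returned 130 and 112 at 0 h less replicate 4 of NTD or of Ser5p, and 2 at 72 h less NTD replicate 3. A member window held a median of 9 to 17 NTD and 19 to 81 Ser5p reads. Self-tests recovered 38 and 39% of 2-fold changes between 0 and 48 h for NTD and Ser5p. Those rates are for transcripts drawn from the whole tables and were not measured for member windows.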
